A study of Saccharomyces cerevisiae with 9 samples.

Results

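The genes described here are the 7 best-studied hexose transporters of the yeast Saccharomyces cerevisiae (HXT1 to HXT7), the glucose sensors SNF3 and RGT2 and the regulator MTH1. They were taken as the probe sets that the platform's gene table gives to these symbols. Of the 10 genes, 9 had a probe set of their own name, out of 5449 S. cerevisiae genes with one. HXT6 had none. The HXT7 probe set has a name ending that marks probes shared between similar transcripts, so its values may mix HXT7 with its near-identical neighbour HXT6. Each of the 9 genes had a single probe set, and each stood above the background limit of 5.64 on the log2 scale, which is the 95th percentile of probe sets named for genes of other organisms.

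Gene expression had been measured on 9 Affymetrix arrays, 3 for each of 3 strains. REF is the reference strain, D12 expresses a D12-desaturase from the fungus Mucor rouxii, and D126 expresses that enzyme together with a D6-desaturase of the same fungus. These enzymes place further double bonds in fatty acids, steps that yeast itself lacks. Every culture was a glucose-limited chemostat with a dilution rate of 0.1 per h, harvested at steady state after at least 5 residence times. The parent strain, the vectors and the promoters that drive the fungal genes are not stated in the sources used here, and those genes were not analysed here. The labels do not say whether replicates came from separate cultures, so p-values reflect the spread between these samples alone, and that spread may be technical.

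Glucose enters yeast cells by facilitated diffusion through the Hxt proteins, which differ in affinity. Hxt1 and Hxt3 are low-affinity carriers made at high glucose, Hxt2 and Hxt4 are made at low glucose, and Hxt6 and Hxt7 are the high-affinity carriers of glucose-starved cells. Hxt5 has intermediate affinity and is known from slow-growing and starved cells. Snf3 and Rgt2 are transporter-like membrane proteins that sense rather than carry glucose, Snf3 at low and Rgt2 at high concentrations. They signal through a long cytoplasmic tail to Mth1 and Std1, the corepressors that keep the repressor Rgt1 on HXT promoters. In the R64 table of yeast genes the coding lengths correspond to 541 to 570 residues for Hxt1, Hxt2, Hxt3, Hxt6 and Hxt7, to 576 for Hxt4 and to 592 for Hxt5, against 763 for Rgt2 and 884 for Snf3. HXT7 and HXT6 are direct neighbours on chromosome IV, with HXT3 close by, and HXT1 and HXT5 are direct neighbours on chromosome VIII, close to HXT4.

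Values are the authors' normalized expression values on the log2 scale, where a difference of 1 is a doubling. A probe set's level depends on its probes, so levels are compared between strains and never between genes. Differences were tested with limma over all 5449 genes and called at an adjusted p (Benjamini-Hochberg) under 0.05. The D126 arrays stood apart from the rest on the leading principal component (54.7% of the variance), and D12 replicate 3 lay apart on the next (18.4%). The 6 markers of MATa cells, all above background, averaged 11.24 to 11.39 in REF, 11.31 to 11.42 in D12 and 11.78 to 11.80 in D126. Of the 6, 5 were called higher in D126 than in REF, against 8.59% of all genes. ASG7, the other marker, differed by 0.21 and was not called (adjusted p = 0.126). The 6 markers of sporulating cells averaged 8.36 on D12 replicate 3 and 7.88 to 7.97 on the other arrays. That average hides changes in opposite directions between REF and D126. SPS4 was called higher in D126 (0.57, adjusted p = 0.00793) and SPR3 lower (-0.60, adjusted p = 0.0295). The 4 markers of MATalpha cells averaged 7.87 to 7.92 in REF, 7.92 to 8.09 in D12 and 7.93 to 8.03 in D126. Of these 4, MF(ALPHA)1 was called higher in D126 than in REF (0.52, adjusted p = 0.00527) and 0 were called lower. The part of these shifts in the results below was not tested. Since RNA came from whole cultures, fewer cells of a kind and less RNA per cell cannot be told apart.

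HXT5 fell and RGT2 rose in D126, and these were the 2 called genes of the 9 in the comparison with REF. HXT5 fell by 0.35 on the log2 scale, a 1.27-fold decrease, and RGT2 rose by 0.34, a 1.27-fold increase. The same pair was called between D126 and D12. A moderated F-test for any difference among the 3 strains also called HXT5 (adjusted p = 0.00633) and RGT2 (adjusted p = 0.00304), with 20.1% of all genes called by that test. Between D12 and REF, 0 of the 9 genes were called.

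The share of all genes called between D126 and REF was 21.5%, with 8.59% higher and 12.9% lower, so 2 called of 9 lies near the background. Between D126 and D12 the share was 22.0%, with 7.32% higher and 14.7% lower. That split depends on scaling. Of the 1200 genes called there, 399 (33.2%) were higher, but 47.5% of those called were higher with quantile normalization and 43.3% after centring each array on its median. The comparisons of D126 with REF and with D12 share the D126 arrays and are not independent of each other.

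**Figure D1:**
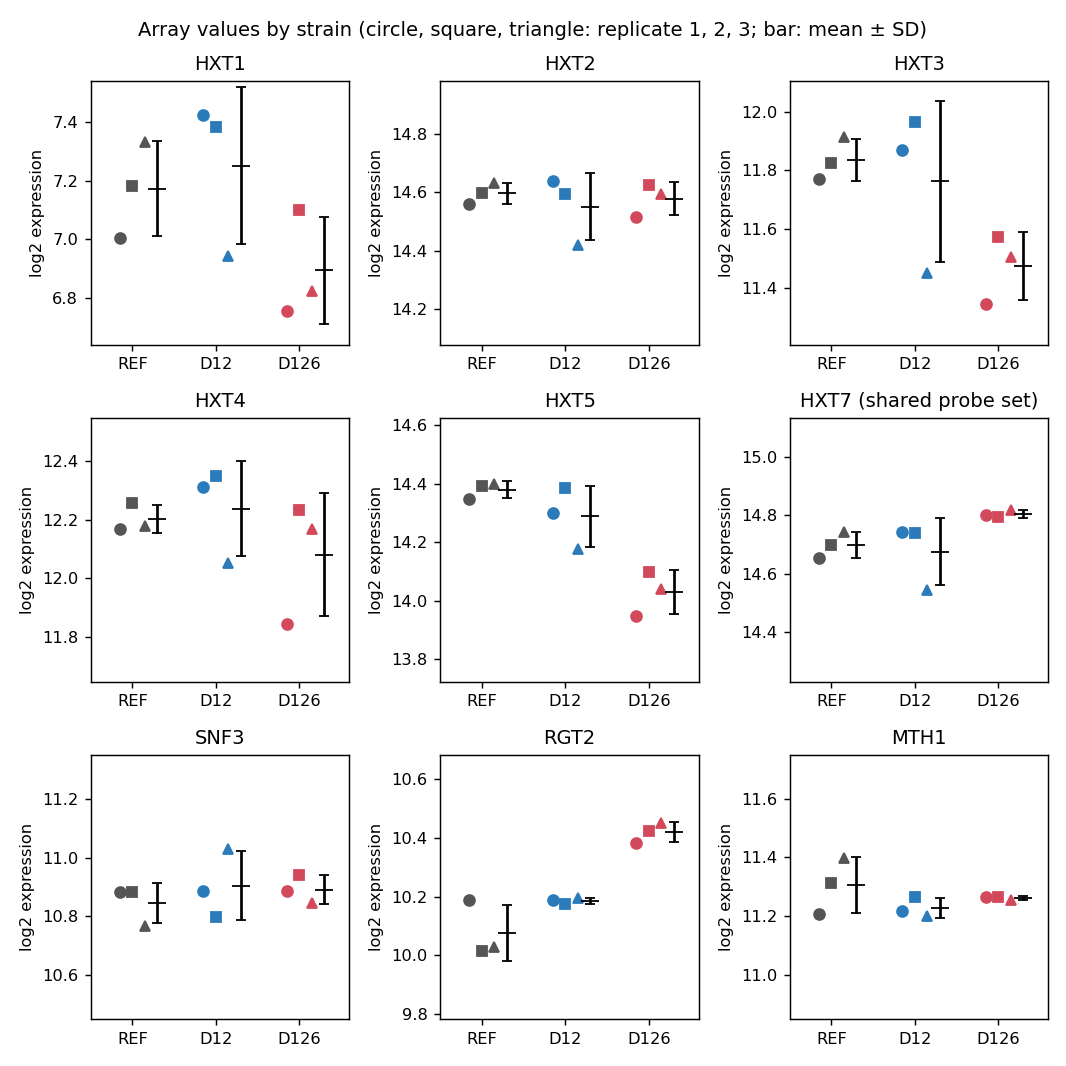
Log2 expression (y axis, each panel spanning the same 0.9 log2 units) of the 9 genes on the 9 arrays, by strain. Circles, squares and triangles are replicates 1, 2 and 3, and the black marks are the mean ± SD of 3 arrays. D126 lies below both other strains for HXT5 and above them for HXT7 and RGT2, and D12 replicate 3 is the low triangle of D12 in all 6 transporter panels.

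HXT5 stood at 14.35, 14.39 and 14.40 in REF, at 14.30, 14.39 and 14.18 in D12 and at 13.95, 14.10 and 14.04 in D126. All 3 D126 values lay below every value of the other strains, while D12 and REF overlapped. The means were 14.38 ± 0.03 in REF, 14.29 ± 0.10 in D12 and 14.03 ± 0.08 in D126 (SD, n = 3 each). The change from REF to D126 was -0.35 (SE 0.06, 95% interval -0.48 to -0.22, limma adjusted p = 0.00313). From D12 to D126 it was -0.26 (SE 0.06, adjusted p = 0.0129). D12 differed from REF by -0.09 (SE 0.06, adjusted p = 0.84).

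HXT1 and HXT3, the low-affinity carriers, had the largest standard errors of the 9 genes (0.14 and 0.12) and passed the test in no comparison. HXT3 stood at 11.77, 11.82 and 11.91 in REF, at 11.87, 11.97 and 11.45 in D12 and at 11.34, 11.57 and 11.50 in D126. The D126 values lay below all of REF and below D12 replicates 1 and 2, whereas D12 replicate 3 fell within the D126 range. The difference between D126 and REF was -0.36 (SE 0.12, adjusted p = 0.06), the largest in size of the 9 genes, with an unadjusted p of 0.0144.

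Whether HXT3 is called depends on how the spread was estimated. With limma's trend and robust moderation over all 9 arrays it was called lower in D126 than in REF (adjusted p = 0.0366). With only the REF and D126 arrays in the fit it was called lower in D126 (adjusted p = 0.00758, or 0.00444 with the replicate number as a block as well). With the replicate block over all 9 arrays it was not called (adjusted p = 0.0857). It was called without D12 replicate 3 (adjusted p = 0.00471) and without D12 replicate 2 (0.0452), each time with the same difference, since those arrays enter this comparison only through the spread. Against D12 the difference was -0.29 (SE 0.12, adjusted p = 0.118), and without D12 replicate 3 it was -0.45 (adjusted p = 0.00484).

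HXT1 stood at 7.01, 7.18 and 7.33 in REF, at 7.43, 7.38 and 6.94 in D12 and at 6.76, 7.10 and 6.82 in D126. The strains overlapped. D126 differed from REF by -0.28 (SE 0.14, adjusted p = 0.192) and from D12 by -0.36 (SE 0.14, adjusted p = 0.103). Without D12 replicate 3 the difference from D12 was -0.51 and was called (adjusted p = 0.0176).

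The probe set of HXT7, shared with similar transcripts, lay slightly higher in D126. It stood at 14.65, 14.70 and 14.74 in REF, at 14.74, 14.74 and 14.54 in D12 and at 14.80, 14.79 and 14.82 in D126, so the D126 values lay above all others. The difference from REF was 0.11 (SE 0.05, 95% interval -0.01 to 0.23, adjusted p = 0.19) and from D12 0.13 (SE 0.05, adjusted p = 0.121), and neither passed the test. Without D12 replicate 3 the difference from REF was called at the same size (adjusted p = 0.0327). These levels are close to the highest value deposited for any probe set, 15.51, and compression at the bright end was not tested. The same limit holds for other bright probe sets named here, among them those of HXT2, HXT5, HXK1, JEN1 and ADH2.

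Of the transporters made at low glucose, neither HXT2 nor HXT4 passed the test. HXT2 stood at 14.56, 14.60 and 14.63 in REF, at 14.64, 14.59 and 14.42 in D12 and at 14.52, 14.63 and 14.59 in D126. The strains overlapped, and D126 differed from REF by -0.02 (95% interval -0.15 to 0.11, adjusted p = 0.86). HXT4 stood at 12.17, 12.26 and 12.18 in REF, at 12.31, 12.35 and 12.05 in D12 and at 11.84, 12.23 and 12.17 in D126. Here D126 replicate 1 lay well below the other D126 arrays, and the difference from REF was -0.12 (95% interval -0.36 to 0.12, adjusted p = 0.45).

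RGT2, the sensor of high glucose, stood at 10.19, 10.01 and 10.03 in REF, at 10.19, 10.18 and 10.19 in D12 and at 10.38, 10.42 and 10.45 in D126. Every D126 value lay above every value of the other strains. The means were 10.08 ± 0.10 in REF, 10.19 ± 0.01 in D12 and 10.42 ± 0.03 in D126 (SD, n = 3 each). RGT2 rose by 0.34 from REF to D126 (SE 0.05, 95% interval 0.24 to 0.45, adjusted p = 0.0014) and by 0.23 from D12 to D126 (SE 0.05, adjusted p = 0.00857). D12 stood 0.11 above REF (SE 0.05), which did not pass the test (unadjusted p = 0.046, adjusted p = 0.817), and REF replicate 1 lay at the level of the D12 arrays.

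SNF3, the sensor of low glucose, stood at 10.88, 10.88 and 10.77 in REF, at 10.89, 10.80 and 11.03 in D12 and at 10.89, 10.94 and 10.85 in D126. The strains overlapped, and the difference between D126 and REF was 0.05 (95% interval -0.09 to 0.18, adjusted p = 0.631). The difference between the log2 values of RGT2 and SNF3 on the same array was -0.70, -0.87 and -0.74 in REF, -0.70, -0.62 and -0.84 in D12 and -0.50, -0.52 and -0.39 in D126, where it lay above all other arrays. Only its change between strains can be read. It contains the RGT2 values above, so it repeats their rise and is no separate result. MTH1, the corepressor to which the sensors signal, stood at 11.21, 11.31 and 11.40 in REF, at 11.22, 11.27 and 11.20 in D12 and at 11.27, 11.27 and 11.25 in D126. It overlapped between all strains, with a difference of -0.04 between D126 and REF (95% interval -0.15 to 0.06, adjusted p = 0.548).

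**Figure D2:**
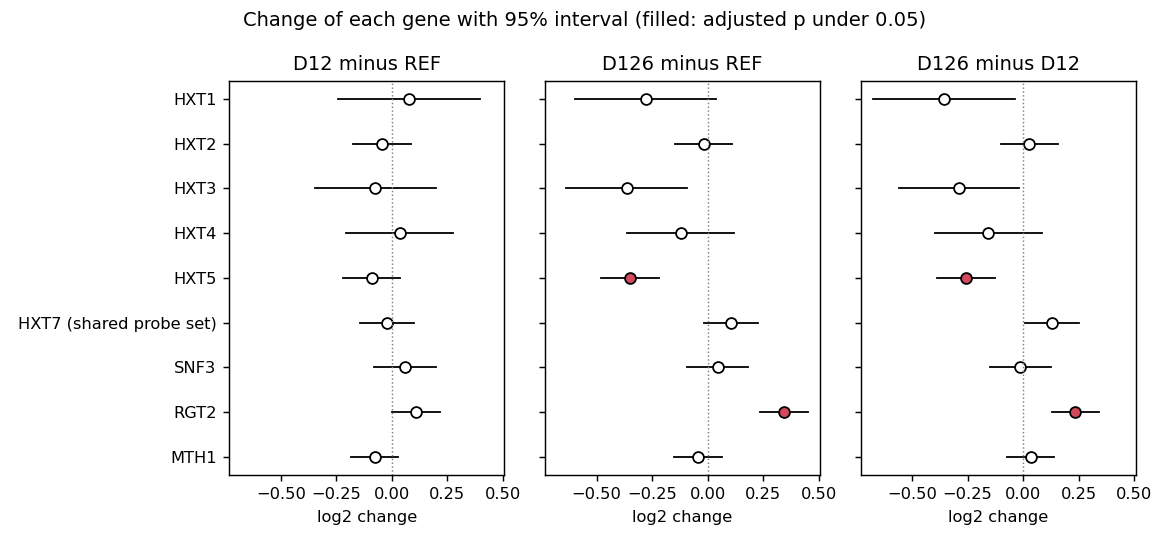
Log2 change (x axis) of each gene with its 95% interval in the 3 comparisons. Filled points were called at an adjusted p under 0.05. HXT5 (-0.35 and -0.26) and RGT2 (0.34 and 0.23) are filled in both comparisons with D126, and no point is filled between D12 and REF.

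For D12 against REF, the differences of the 9 genes ran from -0.09 for HXT5 to 0.11 for RGT2. The count of 0 called by limma stands beside 0% of all genes called there. At an unadjusted p under 0.05 there was 1 of the 9 genes, RGT2, and 326 of 5449 genes (5.98%), and a test without moderation of the variance also called 0 genes. The intervals still admit sizeable differences for the genes with a wide spread, -0.24 to 0.40 for HXT1 and -0.35 to 0.20 for HXT3.

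The values of the strains did not overlap for 4 of the 9 genes between D126 and REF, namely HXT3 and HXT5 on the lower side and HXT7 and RGT2 on the higher. Over all genes this held for 47.9%, with 25.7% lower and 22.2% higher, so the count lies near the background. Between D126 and D12 it held for HXT5 on the lower and for HXT7 and RGT2 on the higher side, against 38.4% of all genes (23.8% lower and 14.7% higher), and between D12 and REF for 0 of the 9, against 10.2%. An unadjusted p under 0.05 was reached by 3 of the 9 genes between D126 and REF (35.8% of all genes) and by 5 between D126 and D12 (36.0%).

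Within each strain, a single array gave the lowest value of most transporters. REF replicate 1 and D12 replicate 3 gave the lowest value of their strain for all 6 transporters, and D126 replicate 1 for 5 of the 6, with HXT7 the exception. Over all genes, these arrays were the lowest of their strain for 35.4%, 26.8% and 42% of genes. On D12 replicate 3 the transporters lay 0.11 to 0.31 below the strain mean, although this array gave the highest value of its strain for 50.9% of all genes. SNF3 was at its D12 maximum on the same array. What set these arrays apart was not tested.

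**Figure D3:**
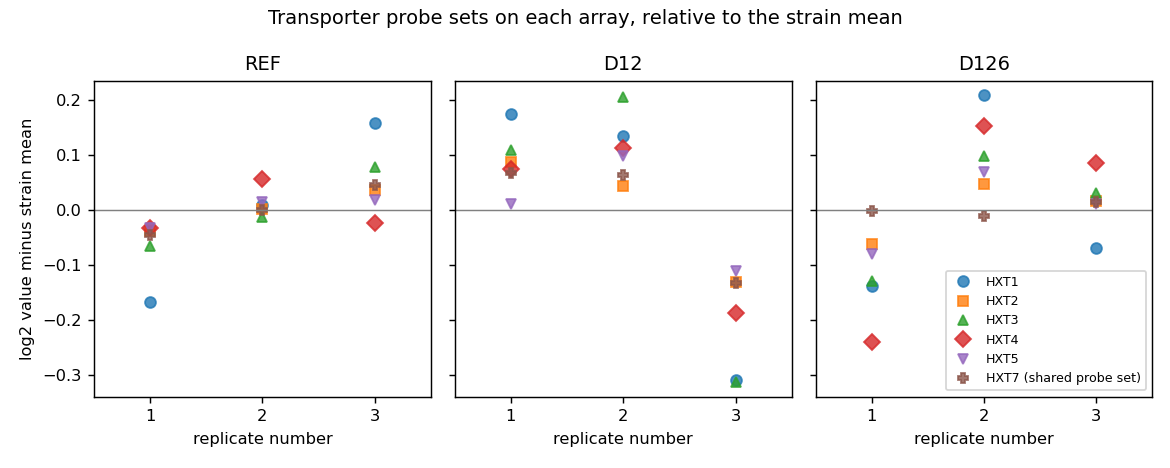
Log2 value minus the strain mean (y axis) of the 6 transporter probe sets on replicates 1, 2 and 3 (x axis) of each strain. All symbols lie below 0 on REF replicate 1 and on D12 replicate 3, where HXT1 and HXT3 reach -0.31.

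The difference between the log2 values of HXT7 and HXT5 on the same array, of which only the change between strains can be read, was 0.31, 0.30 and 0.34 in REF and 0.44, 0.35 and 0.37 in D12. In D126 it was 0.85, 0.69 and 0.78. The D126 values lay above all others, and D12 replicate 3, low for each gene alone, lay within the D12 range. For HXT7 and the nearby HXT3 the same difference was 2.83 to 2.88 in REF, 2.87, 2.77 and 3.09 in D12 and 3.22 to 3.46 in D126. Here D12 replicate 3 lay above the other D12 arrays. Both differences contain the values given above, the former the fall of HXT5, so they are no separate results. These genes were paired after their values were seen, so no test is given.

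The genes whose pattern over the 9 arrays was most like that of HXT5 were FMP45, a membrane protein related to the eisosome protein Sur7 (Pearson r = 0.99), FMP52 (0.99) and ATG33, a factor of mitophagy (0.99). Those most like RGT2 were PLB3, a phospholipase B (r = 0.98), OST5, a subunit of oligosaccharyltransferase (0.98), and PDR12, an exporter of weak acids (0.97). FMP45 went from 13.06 in REF to 12.91 in D12 and 12.50 in D126, and PDR12 from 13.52 to 13.63 and 14.06. The points share their arrays, and r is given as a description.

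Among the other HXT genes and the galactose permease gene GAL2, 9 of the 10 listed genes were measured. Between D126 and REF 9 of 9 lay below 0, as did 2802 of all 5449 genes. The HXT17 probe set, like that of HXT15, is shared with similar transcripts, so the 9 may not be separate readings. Of the 9 genes, 1 fell and 0 rose between REF and D126, against 12.9% of all genes called lower. Between D12 and D126, 5 fell and 0 rose, against 14.7%. The 5 include HXT13 and HXT15, whose means lay below the background limit, so these values are not read as levels, and the HXT15 probe set is shared with similar transcripts. They also include HXT9, HXT10 and HXT14. The HXT10 call was lost with quantile normalization (change -0.17, adjusted p = 0.254) and without D12 replicate 2 or D126 replicates 2 or 3 (0.0608 to 0.08). The HXT13 call was lost without D12 replicate 1 or D126 replicates 1 or 3 (0.0523 to 0.0949). The HXT15 call was lost without D126 replicates 1 or 3 (0.0807 and 0.0584). Testing all non-control probe sets ended the calls against D12 of HXT10 (0.071), HXT13 (0.0803), HXT14 (0.073) and HXT15 (0.064). Fitting without moderation ended the same calls (0.0659, 0.0915, 0.0843 and 0.08). The median change of the 9 genes, HXT13 and HXT15 included, was -0.26 from REF and -0.42 from D12, against -0.0034 and -0.018 over all genes. HXT9 was the member called against REF; it and the 5 called against D12 are named for their calls, after their values were seen. It stood at 8.32 ± 0.09 in REF, 8.42 ± 0.14 in D12 and 7.99 ± 0.13 in D126 (adjusted p = 0.025 against REF and 0.00794 against D12). Its call against REF was lost without REF replicates 1 or 2 or D126 replicates 1 or 3 (adjusted p of 0.0692 to 0.0873) and with the replicate block over all 9 arrays (0.0574). With the mean of its probe sets in place of the brightest, the change of HXT9 from REF was -0.11 and not called (adjusted p = 0.125). HXT14 went from 7.04 ± 0.32 in D12 to 6.45 ± 0.13 in D126 (adjusted p = 0.0259), a call lost without D12 replicate 2 (0.0622) or D126 replicates 2 or 3 (0.0714 and 0.0846). With the replicate block and only REF and D126 in the fit, more genes of the list were called lower than in REF. These were HXT10 (adjusted p = 0.0182), HXT13 (0.0494), HXT14 (0.0309) and HXT15 (0.00747).

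In the pathway from the sensors to the HXT promoters, no gene of the list was called. Of the 7 genes for Std1, the repressor Rgt1, the casein kinases Yck1 and Yck2, the ubiquitin ligase subunit Grr1 and the corepressors Cyc8 and Tup1, 0 were called by limma in any comparison. The share of all genes called was 21.5% between D126 and REF and 22.0% between D126 and D12. With a list of 7 genes, 0 called is therefore not read as a trait of the pathway. At an unadjusted p under 0.05 there were 0 between D126 and REF (35.8% of all genes) and 2 between D126 and D12 (36.0%). The largest differences from REF in D126 were -0.07 for YCK1 (adjusted p = 0.272) and 0.06 for YCK2 (adjusted p = 0.349). RGT1 itself stood at 11.41 ± 0.03 in REF and 11.44 ± 0.01 in D126.

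In glucose repression through the kinase Snf1 and the repressor Mig1, 1 of 13 genes rose and 2 fell in D126 against REF, which lies near the 21.5% of all genes called there. MIG3, a repressor related to Mig1, fell from 8.15 ± 0.11 to 7.82 ± 0.16 (adjusted p = 0.0261), and from 8.23 ± 0.09 in D12 (adjusted p = 0.0103). MIG2, another such repressor, rose from 7.32 ± 0.18 in REF to 7.67 ± 0.09 (adjusted p = 0.0301). Against REF the MIG3 call was lost without REF replicates 2 or 3 or D126 replicates 1 or 3 (adjusted p of 0.0813 to 0.0923), and the MIG2 call without REF replicates 1 or 2 or D126 replicates 2 or 3 (0.0556 to 0.0979) and with the replicate block over all 9 arrays (0.0521). SNF1 and MIG1 were not called, with differences of -0.11 (adjusted p = 0.152) and -0.04 (adjusted p = 0.446).

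Of 9 genes switched on at low glucose, 1 rose and 1 fell between REF and D126, again near that 21.5%. FBP1, which encodes fructose-1,6-bisphosphatase of gluconeogenesis, rose from 11.11 ± 0.09 to 11.44 ± 0.10 (adjusted p = 0.00598). HXK1, a hexokinase of cells on poor carbon sources, differed by -0.12 (adjusted p = 0.0308), a call lost without any 1 of the REF arrays or without D126 replicates 2 or 3 (adjusted p of 0.0702 to 0.12) and with the replicate block over all 9 arrays (0.0693) or these strains alone (0.0548). The invertase gene SUC2, the lactate permease gene JEN1 and the alcohol dehydrogenase gene ADH2 were not called, with differences of 0.03 each. The probe sets of JEN1 and ADH2 are bright, and compression was not tested. HXK2, the hexokinase of glucose-grown cells, stood at 13.45 ± 0.01 in REF, 13.34 ± 0.02 in D12 and 13.53 ± 0.03 in D126. It rose by 0.18 from D12 to D126 (SE 0.03, adjusted p = 0.00389). It was the only hexose kinase of 4 called in that comparison, where 22.0% of all genes were called, so the count lies near the background.

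In glucose signalling through the receptor Gpr1 and protein kinase A, 2 of 11 measured genes fell and 0 rose between REF and D126, near the shares of all genes called (21.5%, with 12.9% lower). TPK2, a catalytic subunit of protein kinase A, fell from 12.62 ± 0.01 to 12.35 ± 0.04 (adjusted p = 0.00135). BCY1, its regulatory subunit, fell from 12.77 ± 0.0043 to 12.55 ± 0.03 (adjusted p = 0.00304). Both also fell between D12 and D126 (adjusted p = 0.00391 and 0.00301). In that comparison 3 of the 11 genes were called lower, against 14.7% of all genes. CYR1 was the other (-0.14, adjusted p = 0.0368), and it was called in only 7 of 20 other settings. The receptor gene GPR1 was not called (difference from REF -0.04, adjusted p = 0.431).

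Of 6 measured genes for other sugar and polyol transporters, 0 were called between D126 and REF, against 21.5% of all genes. There 1 had an unadjusted p under 0.05, against 35.8% of all genes. Between D12 and D126 the maltose permease gene MAL31 was called higher in D126 (0.14, adjusted p = 0.0466). It was not a rise from REF. MAL31 lay below REF in D12 (-0.21, adjusted p = 0.503) and in D126 (-0.07, adjusted p = 0.332). Neither difference from REF was called, though the values did not overlap with those of REF. The call against D12 was lost without any 1 of the arrays other than D12 replicate 2 (adjusted p of 0.0677 to 0.124). Of 7 genes for the ubiquitin ligase Rsp5, its adaptors and other factors of transporter turnover, 0 were called in any comparison by limma. Between D126 and REF 1 of these had an unadjusted p under 0.05 (35.8% of all genes), RSP5 (difference -0.09, adjusted p = 0.127). The share of all genes called was 22.0% between D126 and D12. With lists this short, 0 called is not read as a trait of either list.

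**Figure D4:**
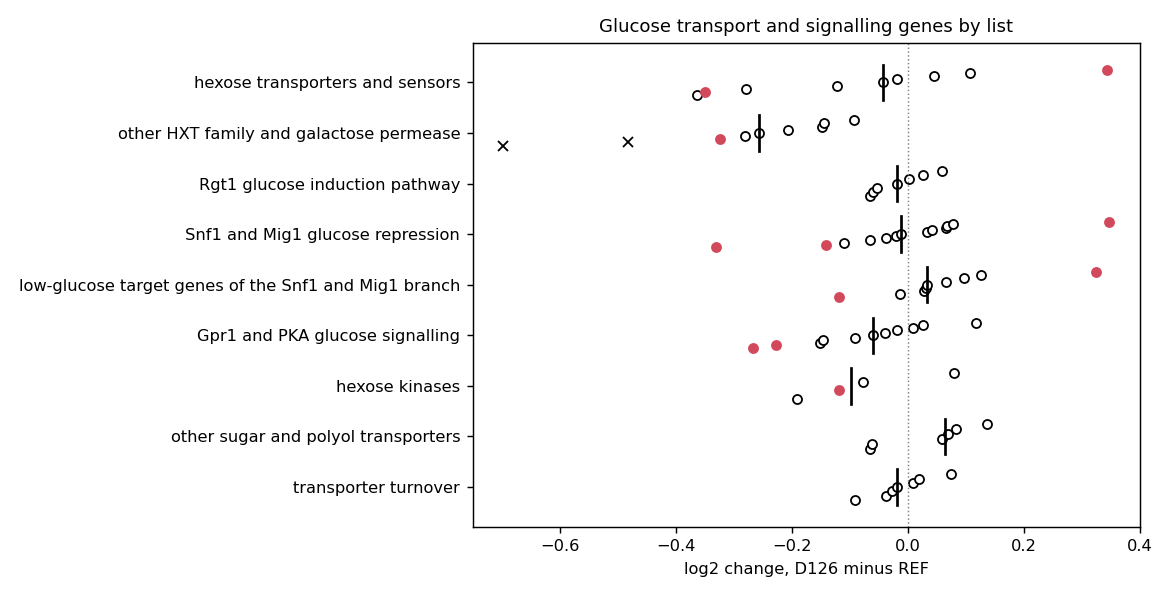
Log2 change from REF to D126 (x axis) of each measured gene, by list. Filled points were called, open points were not, crosses are genes below the background limit and black bars are list medians. HXT5 and RGT2 are the filled points of the top row at -0.35 and 0.34, and the row of the other HXT genes has its median at -0.26.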

How the data were processed

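The deposited log2 expression values (9 arrays, 10928 probe sets) were made by the authors with RMA and affy, per the submitters' processing notes, which give no version. RMA draws the probe intensities of all arrays to 1 distribution, so a change in total RNA per cell cannot be seen. The gene values used here are not on 1 distribution, and their array medians ran from 10.94 to 10.99. Strains and replicate numbers come from the sample titles. The platform's gene table gives 1 gene to 7244 probe sets, and 5498 of these matched the R64 table by gene identifier (5449 genes). For the 47 genes with several probe sets the brightest was used.

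Strain was fitted to all 9 arrays with limma 3.58.1 in R 4.3.3, with empirical Bayes moderation (6 residual and 3.1 prior degrees of freedom), after a test on simulated data. The number of arrays limits the precision. Same-numbered REF and D126 arrays deviated together (correlations of 0.13 to 0.22 over genes, against -0.23 to 0.05 where numbers differed). A replicate block is therefore given for that comparison where it changes a call of a gene named in the text. Same-numbered D12 arrays did not deviate with the others (-0.34 to -0.02).

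All members are named, with up to 3 called genes (or 2 as values) from each pathway list, though the text does not name every gene so picked. The 3 genes most correlated with each called member are also named. Members and lists were chosen with earlier results of these data known. Probe-level signals were not analysed here, so background correction was not varied.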

Additional observations from a re-analysis of the deposited data

How the results depend on the processing

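The results were recomputed under 20 other settings, 9 of which leave out 1 array. HXT5 and RGT2 kept their call between D126 and REF in all 20, and RGT2 between D126 and D12. HXT5 against D12 lost its call in 1, the replicate block with only the strains compared (adjusted p = 0.0604). Under that setting HXK2 (0.0799), TPK2 (0.0752), BCY1 (0.065), HXT9 (0.0515), HXT13 (0.0842) and HXT14 (0.0871) also lost theirs against D12. So did HXT15 (0.0702), MAL31 (0.169), MIG2 (0.0688), FBP1 (0.0652) and CYR1 (0.198), although same-numbered D12 arrays did not deviate with the others. Testing all non-control probe sets and fitting without moderation ended the calls against REF of HXT9 (0.0753 and 0.0743), MIG2 (0.0864 and 0.0855) and MIG3 (0.0774 and 0.0767), and the former that of HXK1 (0.129). Both settings also ended the calls against D12 of HXT10, HXT13, HXT14, HXT15, MIG2, FBP1, MAL31 and CYR1. No called change of a named gene turned its direction. The number of the 9 genes called between D126 and REF was 5 with array weights, 4 with only the strains compared in the fit, and 2 to 4 without each array in turn. It was 3 with trend and robust moderation, and 3 with the replicate block and only the strains compared. Between D126 and D12 it was 4 with array weights, 1 with the replicate block and only the strains compared, and 2 to 4 without each array. It was 0 between D12 and REF throughout. By the F-test it was 5 with array weights and 2 to 4 without each array. The count of 4 without an array arose without D12 replicate 3 in all 3 cases. Array weights, which count arrays with a wide spread less, added HXT1, HXT3 and HXT7 to the genes called between D126 and REF.

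Over all genes, 1173 were called between D126 and REF, 630 when all non-control probe sets were tested, 2615 with array weights and 645 to 1539 without each array (645 without REF replicate 2, 755 without REF replicate 3 and 698 without D126 replicate 3). Between D126 and D12 the count of 1200 became 655, 2057 and 683 to 1332 (683 without D126 replicate 3), with 780 with only the strains compared and 398 with the replicate block as well. The replicate block over all 9 arrays gave 922 and 964 and changed no call of the 9 genes. Between D12 and REF, array weights called 1 gene and leaving out an array 0 to 1 (1 without D12 replicate 2 or D12 replicate 3). The cause of these differences was not tested.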
